A study of Mus musculus with 12 samples.

Results

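The proteasome is built from subunits whose genes carry the names Psma, Psmb, Psmc and Psmd, and 39 rows with such a name and a number were present in all 12 expression tables. Setting aside the 3 interferon-inducible catalytic subunits (Psmb8, Psmb9 and Psmb10) left 36 genes, and 35 of them had a mean of at least 1 TPM (the usual library-scaled level, taken per unit of transcript length) in at least 1 of the 4 groups. These 35 constitutive subunit genes, of 55425 gene identifiers shared by the tables, are described here. The gene left out by the level rule was Psmb11, the thymus-type catalytic subunit, with a highest value of 0.14 TPM. The cells were HM1, a murine ovarian cancer cell line, measured by RNA sequencing of total RNA from 3 samples in each group. The first group was cultured HM1 cells with a control hairpin (shControl), labelled as wild type in genotype, and the second was cultured HM1 cells with a hairpin against the sialyltransferase gene ST3GAL3 (shST3GAL3). The other groups were tumor tissues labelled shControl and shST3GAL3. The labels give neither the host, its age, the tumor site nor the number of hairpins. Nor do they state if the samples of one group are separate cultures or animals, and every p-value therefore describes only the spread among these samples, which may be technical.

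The 26S proteasome degrades proteins that carry ubiquitin chains. Its core particle is a barrel of outer alpha rings, which gate the entry, and inner beta rings, which hold the proteolytic sites; the constitutive sites belong to Psmb5 (chymotrypsin-like), Psmb6 (caspase-like) and Psmb7 (trypsin-like). The regulatory particle caps the barrel: its base of Psmc ATPases unfolds substrates, other Psmd subunits bind and remove ubiquitin, and 3 of the Psmd genes (Psmd5, Psmd9 and Psmd10) encode chaperones that assemble the base. In tissue exposed to interferon gamma, Psmb8, Psmb9 and Psmb10 replace Psmb5, Psmb6 and Psmb7 in newly built particles, the immunoproteasome. The 35 genes comprised 8 alpha ring, 7 beta ring, 6 base ATPase and 11 other regulatory particle genes and the 3 assembly chaperones.

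St3gal3, the targeted gene, measured 11.7 ± 1.82 TPM (SD, n = 3) in control culture and 1.53 ± 0.290 TPM in knockdown culture, and 14.9 ± 0.794 TPM in control tumors against 6.30 ± 0.848 TPM in knockdown tumors, with no overlap in either tissue. Of 8 epithelial and ovarian cancer markers, 4 (Krt8, Krt18, Krt19 and Msln) exceeded 1 TPM in culture, whereas Epcam, Cdh1, Wt1 and Pax8 averaged below 1 TPM there. Each TPM table holds no read count, so the depth of the libraries is unknown; 12629 to 14534 genes reached 1 TPM in a library. The 5 rows of annotated proteasome subunit pseudogenes stayed below 1 TPM in every library, although reads shared with such copies could not be followed in these tables. In bulk tissue a smaller number of cells of one type and less RNA per cell cannot be told apart.

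The promoters of the genes are shown first, because the module is known for factors that act on many of its genes: Nfe2l1, the transcription factor that raises subunit genes when the proteasome is impaired, binds antioxidant response elements. Windows of 300 bases, from 250 before to 50 after the start site, were taken from RefSeq (build GRCm38.p6) and matched by symbol for 28 of the 35 genes, and 3 strings were searched on both strands: TGACNNNGC (the core of the antioxidant response element), CCAAT (the box bound by NF-Y) and CCGGAAG (a core bound by ETS factors). None of their matches overlapped in the windows of the module. The 250 bases before the start are printed 5′ to 3′ in the direction of transcription, with matches to any of the 3 strings in capitals. The catalytic genes Psmb5 (chr14:54617996-54618245, minus strand) and Psmb6 (chr11:70525107-70525356, plus strand) are shown for the first string, Psma7 (chr2:180042465-180042714, minus) and Psmb3 (chr11:97703184-97703433, plus), the most abundant transcripts of the module, for the second, and Psmd2 (chr16:20651402-20651651, plus) and Psmd11 (chr11:80428365-80428614, plus), of the regulatory particle, for the third. Psma5 (chr3:108256676-108256925, plus), the gene with the largest difference between knockdown and control tumors, had none of the 3.
Psmb5: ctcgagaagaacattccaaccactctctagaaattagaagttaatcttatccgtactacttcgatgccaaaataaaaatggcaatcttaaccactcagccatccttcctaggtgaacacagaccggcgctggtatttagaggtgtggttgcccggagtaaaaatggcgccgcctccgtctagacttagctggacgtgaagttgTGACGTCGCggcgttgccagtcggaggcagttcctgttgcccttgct
Psmb6: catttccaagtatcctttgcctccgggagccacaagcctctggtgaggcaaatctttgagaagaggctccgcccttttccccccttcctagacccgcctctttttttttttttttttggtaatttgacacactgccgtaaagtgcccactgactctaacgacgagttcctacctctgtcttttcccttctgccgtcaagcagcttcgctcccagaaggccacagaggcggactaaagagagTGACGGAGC
Psma7: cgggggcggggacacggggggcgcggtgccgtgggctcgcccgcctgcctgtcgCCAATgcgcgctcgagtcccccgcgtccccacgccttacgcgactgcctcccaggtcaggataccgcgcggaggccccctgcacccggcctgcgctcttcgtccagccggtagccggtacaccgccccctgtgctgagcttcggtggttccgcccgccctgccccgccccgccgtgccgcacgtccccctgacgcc
Psmb3: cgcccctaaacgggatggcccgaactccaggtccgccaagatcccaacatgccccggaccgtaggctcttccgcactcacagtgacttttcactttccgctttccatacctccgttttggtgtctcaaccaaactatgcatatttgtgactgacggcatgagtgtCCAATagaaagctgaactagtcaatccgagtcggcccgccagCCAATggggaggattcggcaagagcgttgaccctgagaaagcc
Psmd2: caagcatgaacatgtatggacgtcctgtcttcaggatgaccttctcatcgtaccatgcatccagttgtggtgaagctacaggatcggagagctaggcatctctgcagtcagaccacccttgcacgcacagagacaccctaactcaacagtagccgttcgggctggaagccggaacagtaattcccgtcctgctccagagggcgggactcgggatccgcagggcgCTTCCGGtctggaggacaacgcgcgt
Psmd11: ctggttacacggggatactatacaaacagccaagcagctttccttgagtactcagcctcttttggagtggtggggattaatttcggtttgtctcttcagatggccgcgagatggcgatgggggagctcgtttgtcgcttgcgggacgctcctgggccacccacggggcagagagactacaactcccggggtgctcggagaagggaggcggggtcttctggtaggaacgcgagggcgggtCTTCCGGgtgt
Psma5: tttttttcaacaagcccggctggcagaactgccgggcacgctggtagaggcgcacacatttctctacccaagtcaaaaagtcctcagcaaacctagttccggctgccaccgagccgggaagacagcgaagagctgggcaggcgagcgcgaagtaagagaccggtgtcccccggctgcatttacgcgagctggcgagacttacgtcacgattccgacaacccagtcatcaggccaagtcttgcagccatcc

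In Psmb5 the match TGACGTCGC begins 47 bases before the start, and in Psmb6 the match TGACGGAGC begins 9 bases before it. Matches were counted by gene: 2 of the 28 genes had more than 1 window, and a gene counted if any of its windows held the string. TGACNNNGC was present in 5 of the 28 genes (Psmb5, Psmb6, Psmc6, Psmd9 and Psmd12), a share of 17.9%, against 14% of 27025 genes with a window of that length. CCAAT was present in 11 of the 28 (39.3%, against 41.1% of all genes), and 5 of the 7 alpha ring genes with a window held it. CCGGAAG was present in 10 of the 28 (35.7%, against 9.93% of all genes): 9 of 14 regulatory particle genes held it and 1 of 11 core particle genes, Psma6. A match describes the letters of a window and is not a measured binding site.

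The subunit genes were abundant and their order was much the same in the 4 groups. The median of the 35 group means was 204 TPM in control culture, 209 TPM in knockdown culture, 114 TPM in control tumors and 129 TPM in knockdown tumors. Together the 35 genes made up 0.708%, 0.747%, 0.450% and 0.510% of all TPM in those groups. Psmb3, a structural beta subunit, was the most abundant in culture (564 ± 45.1 TPM in control and 602 ± 58.8 TPM in knockdown cells), and Psma7, of the alpha ring, was the most abundant in tumors (377 ± 31.4 and 465 ± 36.3 TPM). In control culture the libraries of Psmb3 (513 to 598 TPM) and Psma7 (524 to 590 TPM) overlapped. In knockdown culture they overlapped as well (543 to 661 TPM and 566 to 621 TPM), so the order of these genes in culture is not resolved. Psma8, a testis-type alternative to Psma7, passed the level rule through control culture alone, with 1.39, 1.25 and 1.55 TPM, and measured 0.31 to 1.31 TPM elsewhere. Apart from Psma8, the lowest gene in every group was the chaperone gene Psmd9, at 25.1 ± 3.75, 27.4 ± 1.43, 19.3 ± 1.03 and 17.8 ± 1.26 TPM. Across the 35 genes the Spearman correlation of group means lay between 0.886 and 0.997 for the 6 pairs of groups; the genes share libraries, and this is a description across genes. The median coefficient of variation among 3 libraries was 8.15% and 7.39% in control and knockdown culture and 4.47% and 4.28% in control and knockdown tumors.

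**Figure D1:**
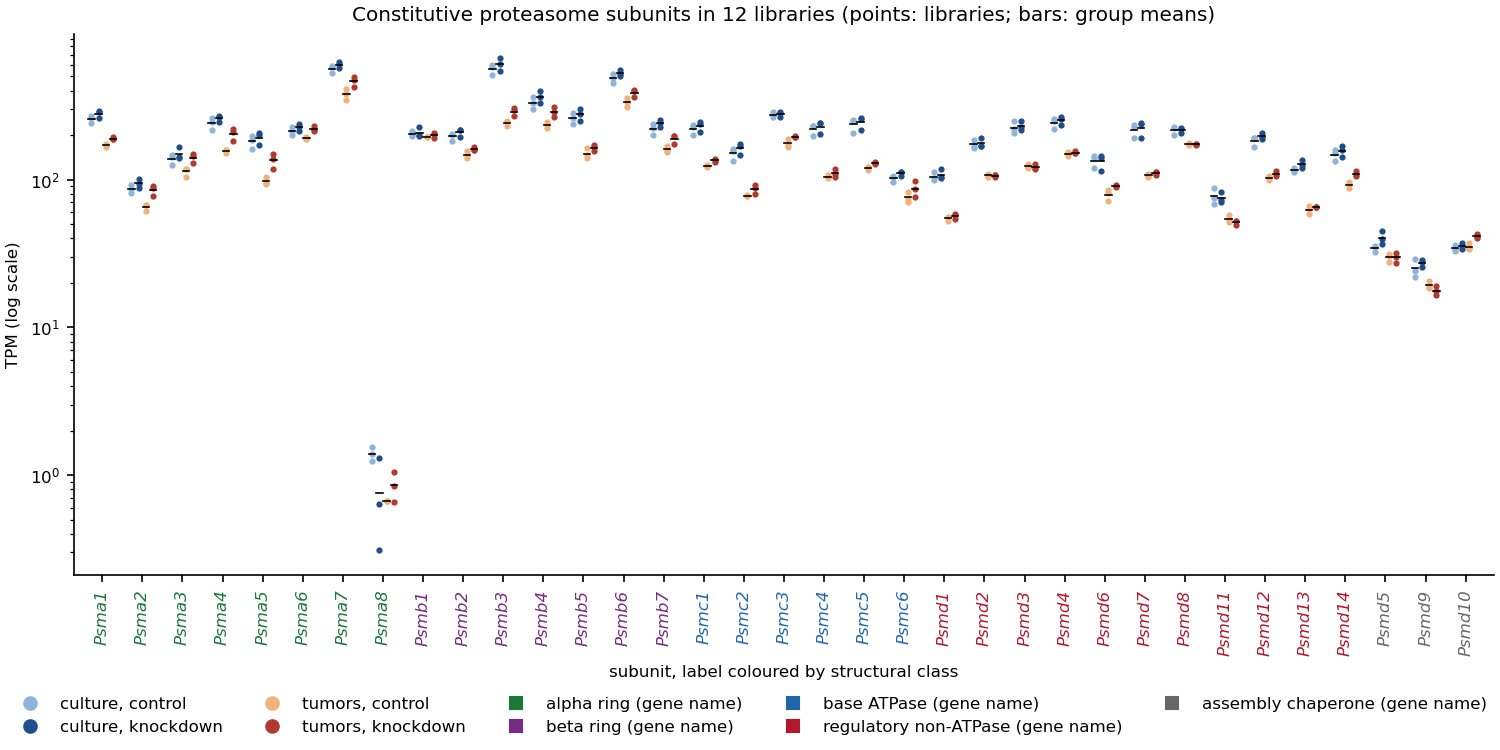
TPM (log scale) of the 35 subunit genes in each of the 12 libraries, by group, with group means as bars and gene names coloured by structural class. Apart from Psma8, near 1 TPM, group means ran from 17.8 TPM (Psmd9 in knockdown tumors) to 602 TPM (Psmb3 in knockdown culture), and tumor values mostly lay below culture values.

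In cultured HM1 cells no subunit gene passed the test for a difference between knockdown and control. Log2 changes were fitted with limma on log2(TPM + 1), which understates changes of low genes, and 0 of 35 genes had an adjusted p under 0.05 (Benjamini-Hochberg over all genes), where 0.0148% of 13492 genes were called higher and 0.0148% lower. At an unadjusted p under 0.05 the count was again 0 of 35, against 2.1% of all genes higher and 1.32% lower. The median log2 change of the module was 0.08, against 0.02 over all genes, and 31 of the 35 estimates were positive, against 57.7% of all genes. Psmb5, the chymotrypsin-like subunit, measured 284, 260 and 238 TPM in the control libraries and 277, 250 and 302 TPM in the knockdown libraries. Psmb6, the caspase-like subunit, measured 514, 487 and 449 TPM against 519, 499 and 554 TPM. Psmb7, the trypsin-like subunit, measured 238, 224 and 201 TPM against 241, 227 and 253 TPM. For all 3 the groups overlapped, and the 95% interval of the log2 change ran from -0.14 to 0.30 for Psmb5, from -0.05 to 0.28 for Psmb6 and from -0.07 to 0.31 for Psmb7.

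One culture library of each group stood at an end of the range for most of the module. Control library 3 was the lowest of the 6 for 28 of the 35 genes (14.8% of all genes were lowest there), and knockdown library 3 was the highest for 23 (11.5% of all genes). Without control library 3 the median log2 change of the module was 0.02. The chaperone gene Psmd5 was the only member whose groups did not overlap (35.6, 34.9 and 32.2 TPM in control and 39.7, 36.6 and 44.9 TPM in knockdown cells), where 5.25% of all genes separated in that direction and 2.45% in the other. Its log2 change was 0.23 ± 0.0988 (SE, limma, unadjusted p = 0.0528). It was named after its values were seen. The groups also overlapped for Psmd5 after median-of-ratios scaling and after quantile normalization. Without control library 1 the number of separating members was 10, and without knockdown library 2 it was 20, against 1 with all 6 libraries. Groups separate more readily with fewer libraries, and the share of all genes was not computed for these fits. The 2 counts are therefore not read as a difference of the module.

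In tumors no subunit gene passed the adjusted threshold, while most estimates were positive with the knockdown in both particles. Of the 34 genes tested there (Psma8 was below the level filter), limma called 0 higher and 0 lower, where 1.07% of 14915 genes were called higher and 0.436% lower. At an unadjusted p under 0.05, 15 of 34 were higher and 0 lower, against 7.52% and 11.2% of all genes. All 3 knockdown tumors lay above all 3 control tumors for 20 of 34 genes and below them for 0, where 9.81% of all genes separated upward and 14.9% downward. The median log2 change of the module was 0.14, against -0.05 over all genes, and 28 estimates were positive, against 39.6% of all genes. For the 14 core particle genes tested the median was 0.24, all 14 estimates were positive, 12 separated and 11 had an unadjusted p under 0.05. For the 17 regulatory particle genes the median was 0.08, 13 estimates were positive, 7 separated and 3 had an unadjusted p under 0.05. The difference between the particles was not tested. All 14 core estimates stayed positive after median-of-ratios scaling and quantile normalization, whereas the count of positive regulatory particle estimates was 16 of 17 under the former and 13 of 17 under the latter.

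**Figure D2:**
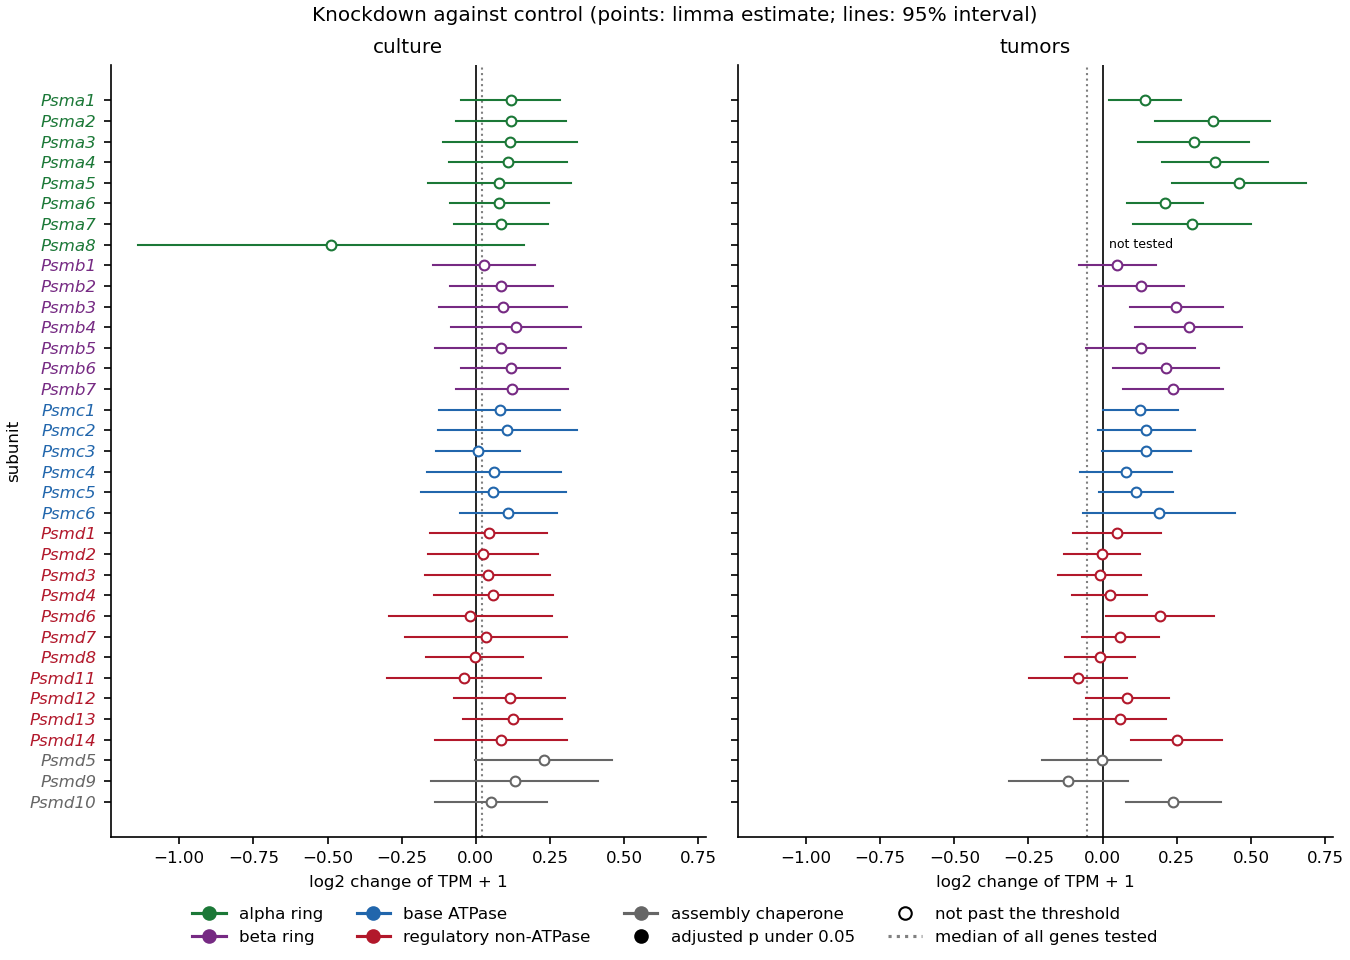
Log2 change of TPM + 1, knockdown against control, for each subunit gene in culture and in tumors, with limma estimates as open circles (none past an adjusted p of 0.05), 95% intervals as lines and the median of all genes as a dotted line. In tumors the 7 alpha ring intervals lie to the right of 0, whereas in culture every interval includes 0.

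All 7 tested genes of the alpha ring, which forms the gate of the barrel, separated upward in tumors, with a median log2 change of 0.31. Psma5 measured 95.1, 104 and 92.8 TPM in the control tumors and 149, 137 and 118 TPM in the knockdown tumors. It had the largest log2 change of the module, 0.46 ± 0.0956 (SE, limma adjusted p = 0.0739), and the lowest knockdown tumor lay above the highest control tumor. Psma1 had the smallest change of the ring. Its control tumors measured 167, 175 and 172 TPM and its knockdown tumors 188, 188 and 193 TPM, a difference of 0.14 ± 0.0517 on the log2 scale (adjusted p = 0.207 by limma). Psma6 measured 195, 187 and 187 TPM against 216, 229 and 215 TPM, with a log2 change of 0.21. The smallest adjusted p of the module was that of Psma4 (limma, 0.0656), whose control tumors averaged 156 ± 3.47 TPM and knockdown tumors 204 ± 18.2 TPM; this gene was named after its values were seen.

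The beta ring, which carries the proteolytic sites, had a median log2 change of 0.21 in tumors and separated upward for 5 of 7 genes. Psmb4, a structural subunit, had the largest difference, with 222, 246 and 235 TPM in control and 310, 288 and 264 TPM in knockdown tumors (log2 change 0.29 ± 0.0763, limma adjusted p = 0.118). Psmb1, also structural, had the smallest, with 194, 194 and 194 TPM against 203, 208 and 191 TPM. Knockdown tumor 3 was below all 3 controls for Psmb1, so its groups overlapped. Psmb3 measured 232, 246 and 250 TPM against 304, 294 and 268 TPM and did not overlap. Among the catalytic subunits, Psmb5 measured 139, 164 and 146 TPM in control and 170, 166 and 155 TPM in knockdown tumors and overlapped. Psmb6 measured 307, 359 and 336 TPM against 405, 395 and 361 TPM, and Psmb7 measured 158, 168 and 154 TPM against 197, 196 and 174 TPM. For both, the lowest knockdown tumor was above the highest control tumor. Their limma adjusted p-values were 0.411 for Psmb5, 0.205 for Psmb6 and 0.151 for Psmb7.

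The base ATPases, which unfold substrates, had 6 of 6 positive estimates with a median of 0.14, and 4 of 6 separated upward. Psmc6 had the largest estimate, 0.19 ± 0.109 (SE), but its libraries overlapped, with 82.96, 73.5 and 70.4 TPM in control and 75.7, 98.0 and 86.3 TPM in knockdown tumors. Psmc4 had the smallest, 0.08 ± 0.0656, at 102, 105 and 107 TPM against 118, 109 and 105 TPM. The other 11 regulatory particle genes had a median of 0.05, and 3 of 11 separated. Psmd14, the subunit that cuts ubiquitin chains off substrates, measured 96.0, 93.4 and 87.0 TPM in control and 108, 115 and 106 TPM in knockdown tumors. Its log2 change of 0.25 ± 0.0651 (limma adjusted p = 0.117) was the largest of the regulatory particle. Psmd11, a scaffold subunit of the lid, was at the other end with -0.08 ± 0.0705, at 57.9, 51.5 and 54.1 TPM against 52.5, 49.0 and 52.6 TPM. Psmd7, another lid subunit, measured 104, 110 and 106 TPM against 113, 112 and 108 TPM and overlapped.

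The 3 assembly chaperones of the base had estimates of both signs. Psmd10, also known as gankyrin, measured 37.0, 33.7 and 34.2 TPM in control and 40.5, 42.7 and 41.1 TPM in knockdown tumors, without overlap (log2 change 0.24 ± 0.0681, limma adjusted p = 0.139). Psmd9 measured 18.9, 18.6 and 20.5 TPM against 19.1, 17.5 and 16.6 TPM, a log2 change of -0.12 ± 0.0853. Psmd5, whose culture groups had separated, averaged 29.8 ± 1.91 TPM and 29.7 ± 2.14 TPM in the tumors.

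Summed levels describe the core and the regulatory particle in each library. The 15 core genes summed to 2532, 2737 and 2631 TPM in the control tumors and to 3231, 3193 and 2928 TPM in the knockdown tumors, which did not overlap. The 17 regulatory genes summed to 1775, 1808 and 1767 TPM against 1908, 1906 and 1858 TPM, also without overlap. The ratio of core to regulatory sums was 1.43 to 1.51 in control and 1.58 to 1.69 in knockdown tumors. In culture this ratio was 1.25 to 1.34 in control and 1.28 to 1.38 in knockdown cells, which overlapped. The knockdown mean of the core sum was 1.18 times the control mean in tumors and 1.07 times in culture, and that of the regulatory sum was 1.06 and 1.04 times.

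**Figure D3:**
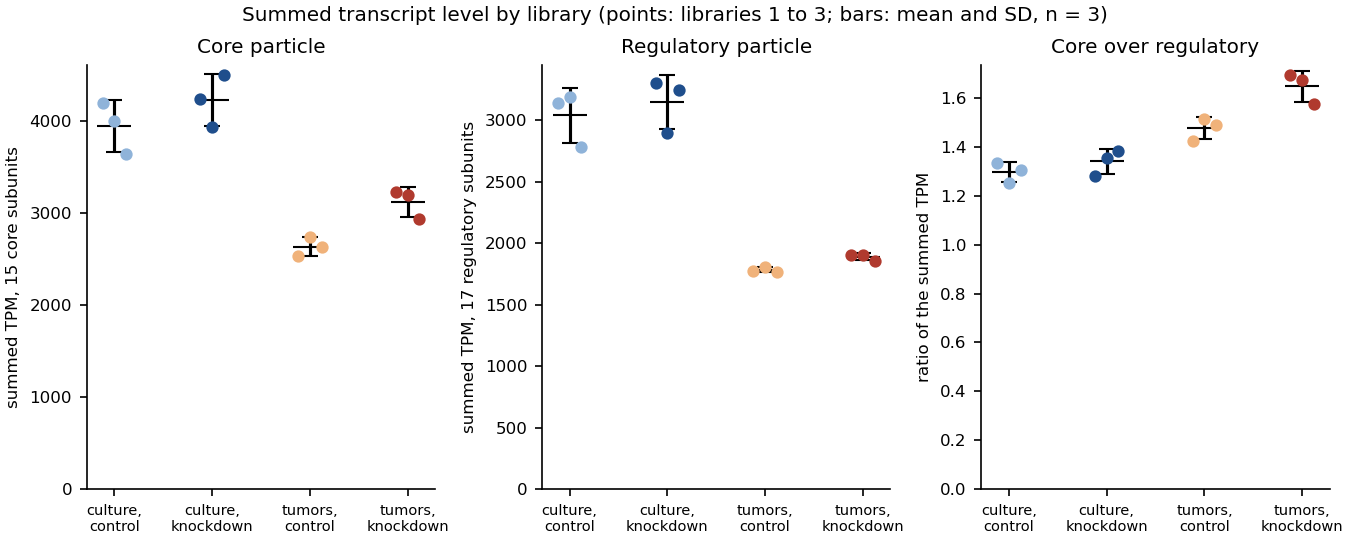
Summed TPM of the 15 core and the 17 regulatory particle genes and the ratio of the sums in each library, with mean and SD of 3 libraries. Knockdown tumors lie at 2928 to 3231 TPM for the core, above the control tumors at 2532 to 2737 TPM, and the culture groups overlap in all 3 panels.

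Other transcripts differed between the same tumor libraries. The 8 epithelial and HM1 markers summed to 3437, 3286 and 3231 TPM in the control tumors and to 2830, 2628 and 2565 TPM in the knockdown tumors, without overlap. Of the 6 of them tested, 0 were called, 4 separated downward and the median log2 change was -0.29. Mitochondrially encoded transcripts summed to 30356, 29602 and 26627 TPM in control and to 32433, 32225 and 31255 TPM in knockdown tumors, also without overlap. Of the 15 of them tested, 0 were called, 10 estimates were positive and 5 negative. By gene, 3 separated upward and 0 downward, so the higher sum does not hold for each transcript. The summed level of 8 interferon-stimulated genes, all detected in tumors, was 164, 302 and 308 TPM in the control tumors. It was 1104, 1026 and 764 TPM in the knockdown tumors, with control 1 and knockdown 3 lowest in their groups. Of these 8 genes, limma called 5 higher and 0 lower, where 1.07% of all genes were called higher and 0.436% lower. All 8 separated upward, with a median log2 change of 1.62. Skeletal muscle markers summed to 3.43, 17.1 and 4.48 TPM in control and to 107, 16.2 and 83.4 TPM in knockdown tumors (10 genes). The 8 proliferation markers summed to 650 to 782 TPM against 733 to 831 TPM, and the 13 leukocyte markers to 954 to 1180 TPM against 862 to 1065 TPM, both overlapping. Within the proliferation list, 0 of 8 genes tested were called, 6 estimates were positive and 2 negative. In that list 2 genes separated upward and 0 downward, with a median log2 change of 0.10. Within the leukocyte list, 0 of 11 genes tested were called, but 5 separated upward and 0 downward, with a median log2 change of 0.24 and a highest of 1.59. The 7 fibroblast markers summed to 1116 to 1510 TPM against 733 to 1126 TPM, and the 5 endothelial markers to 52.0 to 75.4 TPM against 35.0 to 52.4 TPM. Knockdown tumors 1 and 3 held the most muscle transcript. Without them a single knockdown tumor was left, with a core median of 0.29 and a regulatory median of 0.07. After TPM were rescaled without the interferon, leukocyte, muscle and erythroid markers the medians were 0.24 and 0.08. The part of cell make-up, of mitochondrial transcripts and of interferon-stimulated transcription in the subunit levels was not tested. Without knockdown tumor 3, limma called 2 members higher, Psma4 (adjusted p = 0.0382) and Psma5 (adjusted p = 0.0413), where 1.5% of all genes were called. In 1 fit of all 4 groups it called 3, Psma2, Psma4 and Psma5, where 3.89% of all genes were called.

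The difference between the tumor and the culture effect of the knockdown was tested in a fit of all 12 libraries. No member was called (limma, 0 of 35), where 0.571% of 15407 genes were called higher and 0.195% lower. At an unadjusted p under 0.05 there were 3 members with a higher estimate in tumors (Psma5, Psma4 and Psma8), against 4.84% of all genes, and 0 lower, against 6.24%. Psma8 entered the module through its control culture level, which enters this difference, and without it the count was 2 of 34. For Psma5 the difference was 0.38 ± 0.148 (SE, limma adjusted p = 0.349). Its culture values were 199, 185 and 161 TPM in control and 199, 171 and 205 TPM in knockdown cells. The median difference was 0.15 for the 15 core genes, 0.14 without Psma8, and 0.02 for the 17 regulatory genes, against -0.06 over all genes. With median-of-ratios scaling the median was 0.24 for the 15 core genes, 0.10 for the 17 regulatory genes and 0.01 over all genes. So the larger core estimates in tumors are not shown to differ from those in culture.

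The immunoproteasome counterparts of the catalytic subunits were higher in every knockdown tumor than in any control tumor. Psmb8 measured 34.6, 72.2 and 72.4 TPM in control and 130, 104 and 114 TPM in knockdown tumors. Psmb9 measured 22.4, 73.8 and 69.3 TPM against 212, 192 and 153 TPM, and Psmb10 measured 49.5, 83.2 and 74.3 TPM against 205, 193 and 141 TPM. None overlapped, and limma gave log2 changes of 1.02, 1.89 and 1.39 with adjusted p-values of 0.188, 0.150 and 0.0599, so none passed. As a share of its pair with Psmb5, Psmb8 held 27.8% ± 7.02 (SD, n = 3) in control and 41.4% ± 2.49 in knockdown tumors. Psmb9 held 13.7% ± 5.95 and 32.3% ± 2.38 of its pair with Psmb6, and Psmb10 held 29.9% ± 5.17 and 48.5% ± 3.22 of its pair with Psmb7. Each of the 3 differences had an exact two-sided permutation p of 0.1, the smallest that 3 against 3 samples allow, and 0.2 after adjustment over the 6 share tests. In culture the shares overlapped between the groups (exact permutation p of 0.5, 0.8 and 0.7). There Psmb8 was at 0 in 1 library of each group and at most 0.36 TPM in the others, and its mean share was 0.0849% in control and 0.0447% in knockdown cells. Psmb9 held 0.498% and 0.554%, and Psmb10 22.8% and 23.7%. Pair totals were higher in knockdown than in control tumors as well: Psmb8 plus Psmb5 summed to 174, 237 and 218 TPM in control and to 300, 270 and 269 TPM in knockdown tumors.

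**Figure D4:**
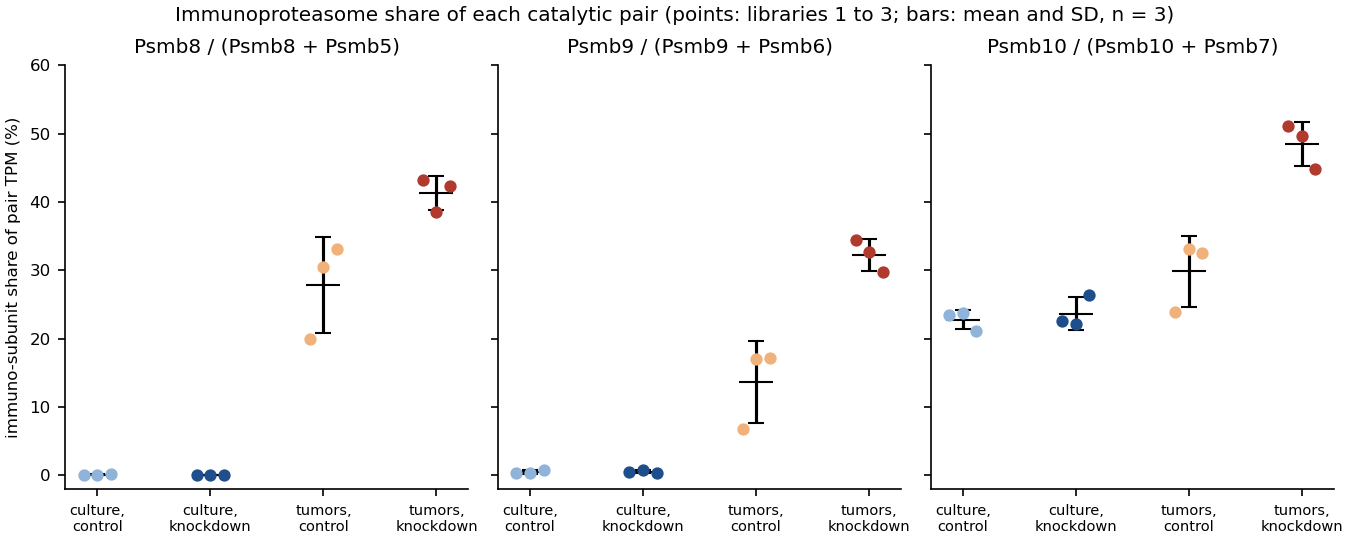
Share of the immunoproteasome subunit in the summed TPM of each catalytic pair (percent) in every library, with mean and SD of 3 libraries. Psmb8 and Psmb9 are near 0 in culture, Psmb10 is near 23% there, and for all 3 pairs the knockdown tumors lie above the control tumors.

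Of the other genes of the pathway, 1 passed the test in a knockdown comparison. Psme2, a subunit of the interferon-inducible 11S activator that docks onto the core particle, measured 331, 363 and 297 TPM in control and 751, 733 and 567 TPM in knockdown tumors. It rose by 1.04 ± 0.125 on the log2 scale (SE, limma adjusted p = 0.0160) and separated without overlap. It was the 1 gene called among 5 activator and inhibitor genes. Its partner Psme1 had a log2 change of 0.70 (limma adjusted p = 0.0641). Of 6 genes matched, the core assembly factors and Akirin2, 0 were called. Pomp, the maturation factor of the core, was at 0.30 (limma adjusted p = 0.0855) and Psmg4 at 0.35 (limma adjusted p = 0.0896). Akirin2, which carries the proteasome into the nucleus, was at -0.27 (limma adjusted p = 0.139). Of 7 further regulatory particle genes and bound enzymes, 0 were called and the median was 0.07. Of 7 genes of the Nfe2l1 axis, 0 were called, and Nfe2l1 itself had a log2 change of -0.28 (limma adjusted p = 0.140). The estimates of this list ran from -0.28 to 0.22, with 2 positive and 5 negative. Of 5 genes for ubiquitin and its activation and 8 shuttle and unfolding factors, 0 were called, with medians of -0.02 and -0.10, where the median over all genes was -0.05. In culture 0 of these genes were called.

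Between tissues the module was lower in tumors than in culture. In control libraries 32 of 35 genes fell and 0 rose (limma adjusted p under 0.05, all 12 libraries in 1 fit, TPM rescaled to the identifiers that the tables share), where 24.6% of 15407 genes were called lower and 39.5% higher. The median log2 change was -0.63, against 0.17 over all genes. The summed level of the module in control tumors was 63.6% of that in control culture, 66.8% for the core and 58.7% for the regulatory particle. All 17 regulatory particle genes fell, as did 14 of 15 core genes and 1 of 3 chaperones. Psma8 is among these, and a fall from control culture is built into how it passed the level rule. Without it 31 of 34 genes fell, 13 of 14 in the core. Culture and tumor tables differ slightly in their identifiers, and the labels do not say if they were processed together, so tissue, host cells and any difference in processing or sequencing run cannot be told apart. After quantile normalization the median over all genes was -0.06 and that of the module -0.54, and 31 genes were called lower.

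Psmb3 fell furthest, from 598, 581 and 513 TPM in control culture to 232, 246 and 250 TPM in control tumors (log2 change -1.22 ± 0.0826, SE, limma adjusted p = 1.52e-07). Psmc4, an ATPase, followed at -1.06, from 229, 230 and 196 TPM to 102, 105 and 107 TPM. Psmd7 stood at -1.03, from 234, 228 and 192 TPM to 104, 110 and 106 TPM. For these 3 the highest tumor value lay below the lowest culture value. At the other end Psmd10 measured 36.0, 32.8 and 33.7 TPM in control culture and 37.0, 33.7 and 34.2 TPM in control tumors, which overlapped (log2 change 0.02 ± 0.0678, limma adjusted p = 0.797). Psmb1 measured 213, 203 and 196 TPM in culture and 194 TPM in each tumor, and did not pass (log2 change -0.08, limma adjusted p = 0.251). Psma6 fell from 227, 213 and 200 TPM to 195, 187 and 187 TPM, a log2 change of -0.18 ± 0.0603. The third gene that did not pass was the chaperone gene Psmd5 (log2 change -0.21, limma adjusted p = 0.0663). The catalytic genes fell by 0.81 (Psmb5), 0.54 (Psmb6) and 0.47 (Psmb7) on the log2 scale.

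**Figure D5:**
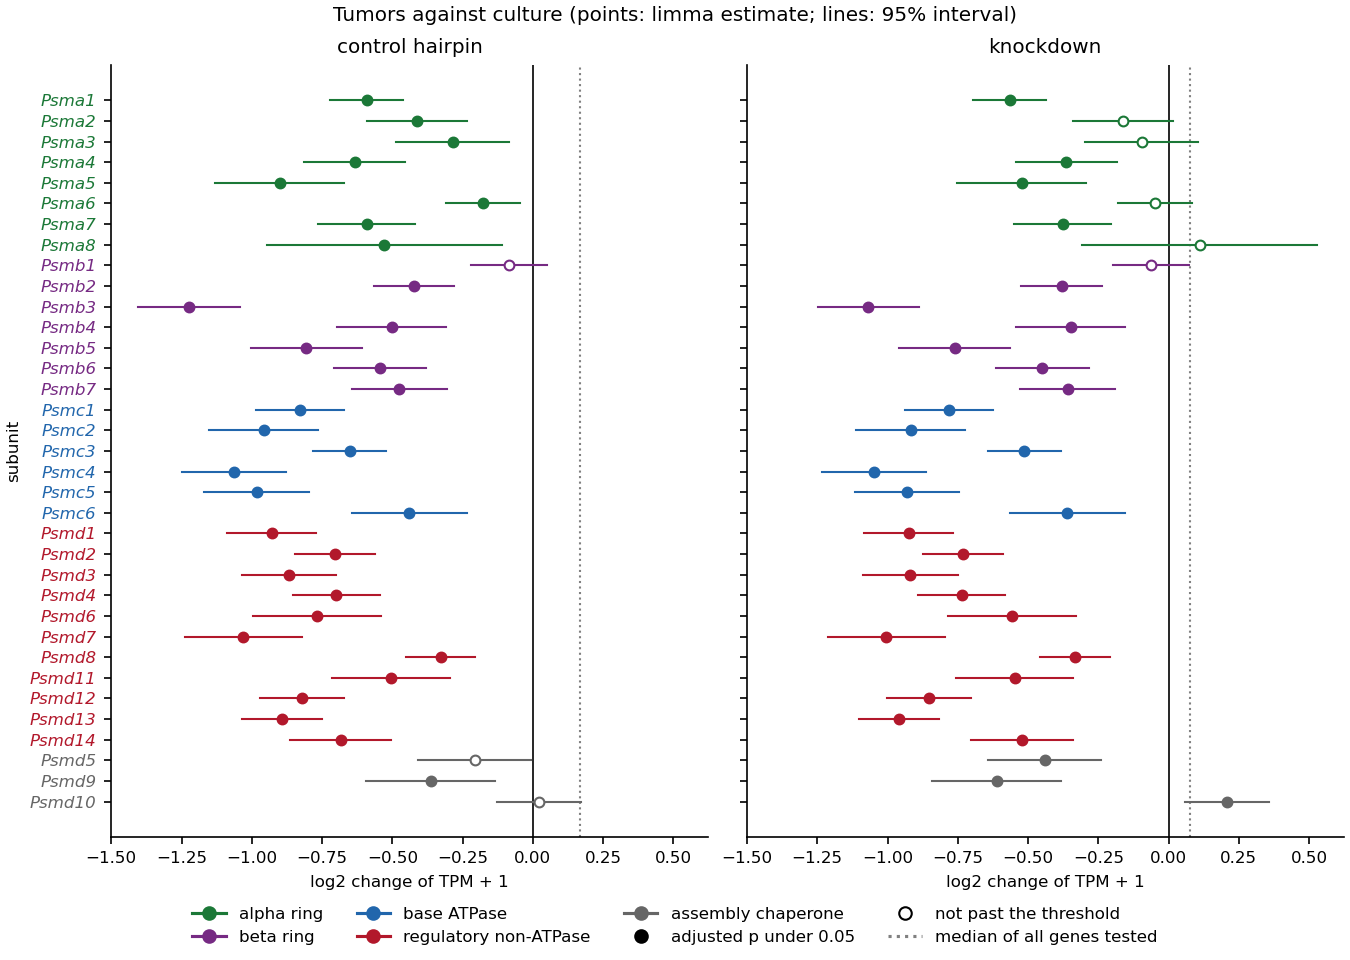
Log2 change of TPM + 1, tumors against culture, for each subunit gene with the control hairpin and with the knockdown, with limma estimates (filled where the adjusted p is under 0.05), 95% intervals as lines and the median of all genes as a dotted line. With the control hairpin 32 of 35 genes are filled and lower, and Psmb3 lies furthest left at -1.22.

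In the knockdown libraries, which are other samples, 29 of 35 genes fell and 1 rose, where 27.9% of all genes were called lower and 35.7% higher. The median log2 change was -0.52, against 0.08 over all genes. By class, 4 of 8 alpha ring, 6 of 7 beta ring, 6 of 6 ATPase and 11 of 11 other regulatory particle genes fell, along with 2 of 3 chaperones. The gene that rose was Psmd10, from 35.4, 33.9 and 37.0 TPM to 40.5, 42.7 and 41.1 TPM (log2 change 0.21 ± 0.0678, SE, limma adjusted p = 0.0183). This call was lost after median-of-ratios scaling, quantile normalization and when knockdown tumor 2, knockdown tumors 1 and 3, or knockdown culture library 2 were left out. Psma2, Psma3, Psma6, Psma8 and Psmb1 did not pass in this contrast. The test of whether the tumor to culture difference itself differed between knockdown and control is the same contrast as the one given above, and called 0 of 35 members. The summed level of the module in knockdown tumors was 68.2% of that in knockdown culture.

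Markers of the tumor cells and of other cells moved with the tissue. The 8 epithelial and HM1 markers summed to 4567 to 5051 TPM in culture and 2565 to 3437 TPM in tumors. Of the 6 of them tested, limma called 3 higher and 3 lower in tumors, with the control hairpin and with the knockdown alike. Their median log2 changes were 0.40 and 0.17, against 0.17 and 0.08 over all genes, so the lower sum does not hold for each marker. The 13 leukocyte markers summed to at most 1 TPM in culture, with Cd3e, Cd4, Nkg7 and Adgre1 at 0 in all 6 culture libraries, and to 862 to 1180 TPM in tumors. The 7 fibroblast markers summed to 1.10 to 1.90 TPM in culture and 733 to 1510 TPM in tumors, and the 5 endothelial markers to 0.27 to 0.75 TPM and 35.0 to 75.4 TPM. The 8 proliferation markers summed to 1778 to 1984 TPM in culture and 650 to 831 TPM in tumors. Their part in the lower subunit levels of tumors was not tested.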

How the data were processed

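RNA was sequenced from 12 samples, 3 in each of 4 groups taken from the titles. The deposited tables give TPM per gene; fastp, HISAT and RSEM are named with build GRCm39, per the submitters' processing notes, and their versions are not given in the sources used here. No counts were used, and the depth is unknown. The authors' TPM were kept for levels and sums, and fold changes came from limma 3.58.1 (R 4.3.3; trend and robust options) on log2(TPM + 1), for genes averaging at least 1 TPM in some group of the fit, with two-sided p-values adjusted by Benjamini-Hochberg over all genes tested and a threshold of 0.05. Fits across tissues used TPM rescaled to the 55416 Ensembl gene identifiers among the 55425 shared identifiers. The procedure was tested on simulated data, but only with changes larger than any member estimate between knockdown and control. How often changes of the size seen in the members would be called was not tested. Immunoproteasome shares were compared with exact permutation tests. The members and lists were chosen with earlier results of these data known. Genes chosen to be given in every library were the catalytic subunits, their immunoproteasome counterparts, and the largest and smallest tumor change of each class. So were any gene called in a knockdown comparison and the 3 highest and 3 lowest control tumor to culture changes. For other pathway genes the plan was those called, or up to 3 per list with the smallest p. Psme1, Pomp, Psmg4, Akirin2 and Nfe2l1 were given by log2 change only. The further regulatory particle, ubiquitin and shuttle lists were given by counts and medians. The lists were immunoproteasome, activators and inhibitor, core assembly together with Akirin2 and Paaf1, other regulatory particle genes, Nfe2l1 axis, ubiquitin and shuttles. Paaf1 was not matched. The marker lists were of epithelial, leukocyte, fibroblast, endothelial, muscle, erythroid and proliferating cells, interferon response and mitochondrial transcripts. Erythroid markers summed to 2.46 to 3.60 TPM in culture and 37.7 to 107 TPM in tumors. The alternatives were another pseudocount, other filters and scalings, a minimum change, the replicate number as a block, each library left out, all groups in 1 fit, tumors without muscle-rich libraries and, chosen after seeing the data, tumors also without control tumor 1 and the module without Psma8.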

Additional observations from a re-analysis of the deposited data

How the results depend on the processing

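In tumors, the number of subunit genes called higher was 0 as reported, 3 with all 4 groups in 1 fit and 0 to 2 when a library was left out. In control tumors against control culture the number called lower was 16 with a minimum log2 change of 0.5, against 32. In knockdown tumors against knockdown culture the number called lower was 13 with that minimum, against 29; the number called higher, 1 as reported, was 0 with median-of-ratios scaling, quantile normalization, the minimum change and without knockdown tumors 1 and 3, and 0 to 1 when a library was left out. The counts of members called with the other alternatives stayed within 1.5 times those reported. Over all genes, 225 were called between knockdown and control tumors, against 82 with no filter on low values, 8 with the minimum change, 599 with all groups in 1 fit, 72 without knockdown tumors 1 and 3, and 38 (without knockdown tumor 1) to 229 with a library left out. An alternative chosen after seeing the data, without control tumor 1 and knockdown tumors 1 and 3, called 0 members and 135 genes over all; its single knockdown tumor is assumed to vary like the controls. In culture, 4 genes were called, against 11 with a pseudocount of 0.1, 8 with at least 1 TPM in 3 libraries, 8 with all groups in 1 fit and 7 to 15 with a library left out. For the difference between tissues 118 were called, against 26 with the pseudocount of 0.1, 183 after quantile normalization, 8 with the minimum change and 66 to 159 with a library left out. Between tissues 9877 (control) and 9796 (knockdown) genes were called, against 4593 and 4697 with the minimum change. The causes of these changes were not tested. The minimum change is a stricter rule by design, and the fits without a library hold fewer samples.

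Leaving Psma8 out of the module, also chosen after seeing the data, kept every count of called members within 1.5 times that reported.

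It is not known if the replicate numbers pair the samples. Same-numbered libraries of knockdown and control correlated at -0.16 to 0.05 in their deviations from the group means. In 1 of these 6 pairs the own number gave the highest correlation. With 3 libraries a group these values cannot exclude pairing. With the replicate block, 0 members were called in either knockdown comparison or in the difference, 32 were lower in control tumors and 29 lower and 1 higher in knockdown tumors, as without it; over all genes 2 were called in tumors and 0 for the difference.

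Leaving out a library moved the culture difference in immunoproteasome share between -0.0461 and 0.199 percentage points for Psmb9 and between -0.477 and 1.69 for Psmb10. Precision is limited by 3 libraries a group and by TPM values that carry no read depth.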
